A study of Rattus norvegicus with 12 samples.

Results

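The genes described here are 10 genes of vitamin D metabolism and of protein uptake in the kidney tubule, measured in renal cortex and liver of rats given trichloroethylene (TCE), a chlorinated solvent. They were found as the probe sets (groups of short oligonucleotides that together measure 1 transcript) whose platform annotation gives exactly 1 gene symbol from the list Cyp27b1, Cyp24a1, Cyp2r1, Vdr, Gc, Kl, Lrp2, Cubn, Amn and Dab2. This gave 10 probe sets for 8 genes, of the 31099 probe sets in the deposited table, or 8 of the 14217 genes that have such a probe set. Gc and Amn have 2 probe sets each, called the brighter and the dimmer below, and the expression of Cyp24a1 and Cyp2r1 is not analysed here. The groups were renal cortex of TCE rats, renal cortex of control rats, liver of TCE rats and liver of control rats, with 3 arrays in each and 12 in all. Male rats of 7 to 9 weeks received TCE by mouth at 16 mg/kg a day for 3 days in corn oil at 5 ml/kg, while the oil by itself was given to control rats. Both tissues were taken 24 h after the last dose. Both F-344 and Wistar-derived appear as strain names in the labels. RNA came from a small piece of each tissue, so every value is a mixture of cell types.

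Megalin, encoded by Lrp2, and cubilin, encoded by Cubn, are large receptors on the brush border of the proximal tubule. They take filtered proteins back from the primary urine, among them vitamin D bound to its plasma carrier Gc and vitamin B12 bound to transcobalamin. Amnionless, encoded by Amn, anchors cubilin in the membrane, and the adaptor Dab2 links the tail of megalin to clathrin. In the tubule cell the carrier is broken down and the hydroxylase Cyp27b1 turns the released precursor, made in the liver by Cyp2r1 among other enzymes, into the active hormone. The hormone acts through the nuclear receptor Vdr and is inactivated by Cyp24a1, and Klotho, encoded by Kl, is the co-receptor through which Fgf23 restrains this synthesis.

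Values are log2 units, so that 1 unit is a 2-fold difference, and the deposited table reaches down to a lowest value of 2.17 shared by all arrays and up to 16.5. Array medians ran from 3.88 to 3.96 in renal cortex and from 3.51 to 3.54 in liver, and a probe set below the array median on all arrays of a group is called dim there. Where 1 of 2 groups was dim, the fold is given as a lower bound, with the array medians in place of the dim values. The tissue labels were checked with marker lists. None of 10 proximal tubule markers was dim in renal cortex, whereas 4 of them (Slc5a12, Slc22a6, Ggt1 and Slc3a1) were dim in liver, as were all 7 measured loop and distal tubule markers. None of 8 hepatocyte markers was dim in liver. In renal cortex the mean of these 8 markers was 6.08, 4.94 and 5.16 in TCE rats, against 6.19, 7.60 and 5.31 in control rats. Renal cortex control replicate 2 stood apart in them: Fgb, a fibrinogen chain made by hepatocytes, had 6.67 there against 2.31 to 3.90 on the other renal cortex arrays. Some results on renal cortex are therefore also given without that array. With 3 arrays a group, array number sets the precision. Values are listed in the order of replicate numbers, and the labels do not say that equal numbers mark the same rat. Wording such as "their livers" therefore names the treatment group and no pairing of arrays.

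In both treatment groups the receptors of the proximal tubule and Klotho were far higher in renal cortex than in liver, and the vitamin D carrier Gc was far higher in liver. The question of this comparison is where in the body each member is expressed. Lrp2 had 14.53, 14.62 and 14.36 log2 units in renal cortex of TCE rats, against 7.14, 7.47 and 7.42 in their livers. In control rats it had 14.41, 14.40 and 14.29 in renal cortex, against 7.21, 7.43 and 6.99 in liver. All 6 renal cortex arrays lay about 7 units above all 6 liver arrays. The difference between tissues was 7.16 ± 0.12 (SE) in TCE rats and 7.16 ± 0.13 in control rats, or 143-fold in both (limma adjusted p = 3.69e-07 and 5.03e-07, 3 against 3 arrays). Of the genes with a single symbol, those whose centred values over the 12 arrays lay closest to those of Lrp2 were Bsnd, a chloride channel subunit (root mean square difference 0.141 log2 units), Tfap2b, a transcription factor (0.175), and the antisense RNA Abhd11-as1 (0.193). These 3 averaged 2.23 to 2.84 in liver, below the array medians, where Lrp2 averaged 7.34 in TCE rats and 7.21 in control rats, so their distance and order depend on how far their renal cortex level lies above background.

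The liver values of Lrp2 were not dim, whereas those of Cubn were. Cubn had 12.41, 12.51 and 12.44 log2 units in renal cortex of TCE rats, against 2.38, 2.38 and 2.44 in their livers. In control rats the values were 12.25, 12.37 and 12.26 in renal cortex, against 2.38, 2.29 and 2.65 in liver. The liver values sit close to the lowest value of the table, and 2.38 recurs on 3 liver arrays, so they measure no level. Renal cortex was at least 483-fold higher than liver in TCE rats and at least 436-fold higher in control rats. Cubn and both Amn probe sets passed the filter on low values through renal cortex alone, and Kl was dim in liver, so no p is given for these genes.

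Amnionless followed the same pattern on both of its probe sets. The brighter had 12.65, 12.74 and 12.65 log2 units in renal cortex of TCE rats, against 2.44, 2.69 and 2.20 in their livers, and 12.93, 12.82 and 12.75 in renal cortex of control rats, against 2.24, 2.24 and 2.42 in theirs. This is at least 566-fold in TCE rats and at least 634-fold in control rats. The dimmer probe set had 7.31, 7.20 and 7.23 in renal cortex of TCE rats, against 2.21, 2.17 and 2.18 in their livers. In control rats it had 6.97, 7.34 and 6.93 in renal cortex, against 2.17, 2.40 and 2.40 in liver. The lower bounds from this probe set were 13.1-fold in TCE rats and 11.8-fold in control rats, so the size of the difference depends on the probe set and its direction does not.

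Dab2, the adaptor, was well measured in both tissues. It had 13.71, 13.32 and 13.43 log2 units in renal cortex of TCE rats, against 8.38, 8.40 and 7.94 in their livers, and 13.14, 13.75 and 13.13 in renal cortex of control rats, against 8.06, 7.75 and 8.14 in theirs. No liver array was dim. The difference was 5.25 ± 0.17 (SE), or 38.0-fold, in TCE rats and 5.36 ± 0.21, or 41.0-fold, in control rats (limma adjusted p = 4.30e-06 and 8.96e-06). Macrophages and endothelium also make Dab2, and none of 7 macrophage markers and none of 7 endothelial markers was dim in liver. Their part in the liver value was not tested.

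Klotho, which is made mainly by the distal tubule, had 8.09, 7.66 and 7.71 log2 units in renal cortex of TCE rats, against 2.93, 2.39 and 2.93 in their livers. In control rats it had 6.68, 7.48 and 7.14 in renal cortex, against 2.93, 2.75 and 2.39 in liver. The liver values 2.93 and 2.39 recur, so they too measure no level. Renal cortex was at least 19.5-fold higher in TCE rats and at least 11.9-fold higher in control rats.

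**Figure D1:**
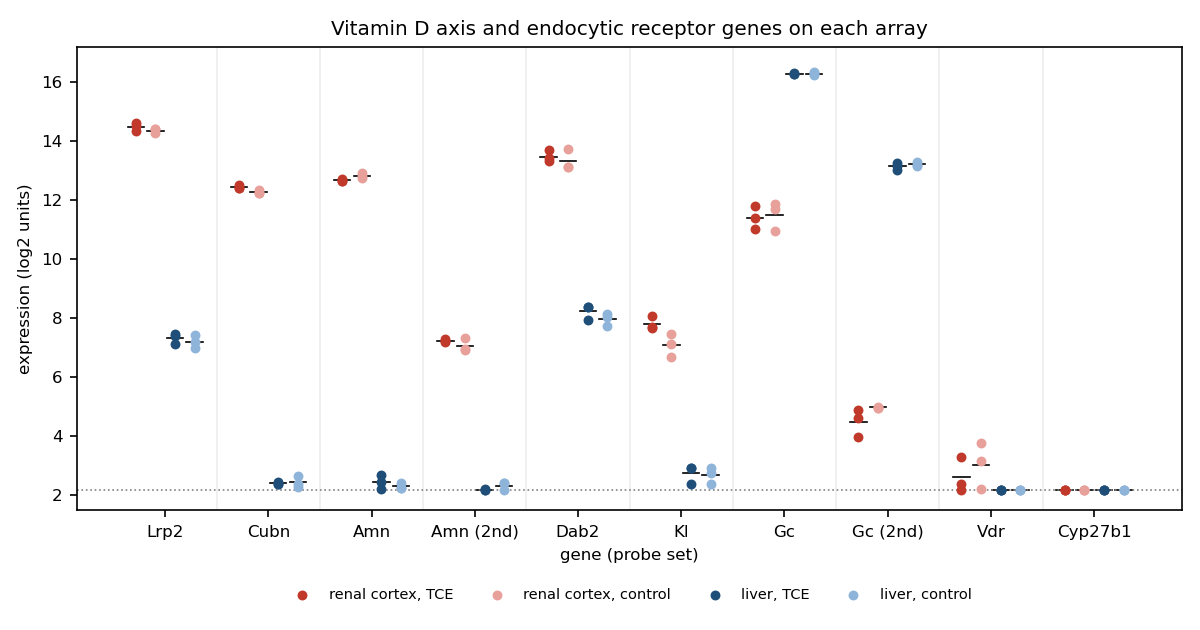
Expression in log2 units (vertical axis) of each of the 10 probe sets (horizontal axis) on every array. Points are single arrays of renal cortex and liver from TCE and control rats, short lines are group means, the dotted line is the lowest value of the table at 2.17, and (2nd) marks the dimmer probe set of Amn and Gc. Lrp2, Cubn, Amn, Dab2 and Kl stand higher in renal cortex, Gc stands higher in liver, and Cyp27b1 lies on the dotted line throughout.

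The carrier Gc ran the other way. Its brighter probe set had 11.02, 11.81 and 11.40 log2 units in renal cortex of TCE rats, against 16.29, 16.27 and 16.32 in their livers, and 11.89, 11.69 and 10.96 in renal cortex of control rats, against 16.31, 16.34 and 16.24 in theirs. The liver values are close to the highest value of the whole table, 16.5, where a difference may be compressed. The dimmer probe set had 3.97, 4.90 and 4.63 in renal cortex of TCE rats, against 13.03, 13.17 and 13.28 in their livers. In control rats it had 4.99, 4.98 and 4.97 in renal cortex, against 13.18, 13.31 and 13.17 in liver. Every liver array lay above every renal cortex array on both probe sets. The difference was -4.88 ± 0.20 (SE) on the brighter and -8.66 ± 0.25 on the dimmer probe set in TCE rats, and -4.78 ± 0.25 and -8.24 ± 0.07 in control rats, with limma adjusted p between 5.41e-08 and 2.845e-05. Liver was thus 29.5-fold higher by the brighter and 405-fold higher by the dimmer probe set in TCE rats, and 27.5-fold and 303-fold higher in control rats.

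Because plasma proteins are the main product of hepatocytes, the renal cortex values of Gc were set beside the hepatocyte markers of the same arrays. Alb, the albumin gene, had 10.96, 4.36 and 6.32 log2 units in renal cortex of TCE rats, against 9.89, 12.80 and 7.84 in control rats, a range of over 8 units. The brighter Gc probe set spanned less than 1 unit over these arrays. It had 11.81 on TCE replicate 2, where Alb was lowest, and 11.69 on control replicate 2, where Alb was highest. The dimmer probe set ran from 3.97 to 4.99 on these arrays. The part of hepatocytes in the renal cortex values of Gc was not tested. Without control replicate 2 the tissue difference of control rats was -4.87 on the brighter probe set, and it was -4.97 to -4.50 over all arrays left out in turn.

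**Figure D2:**
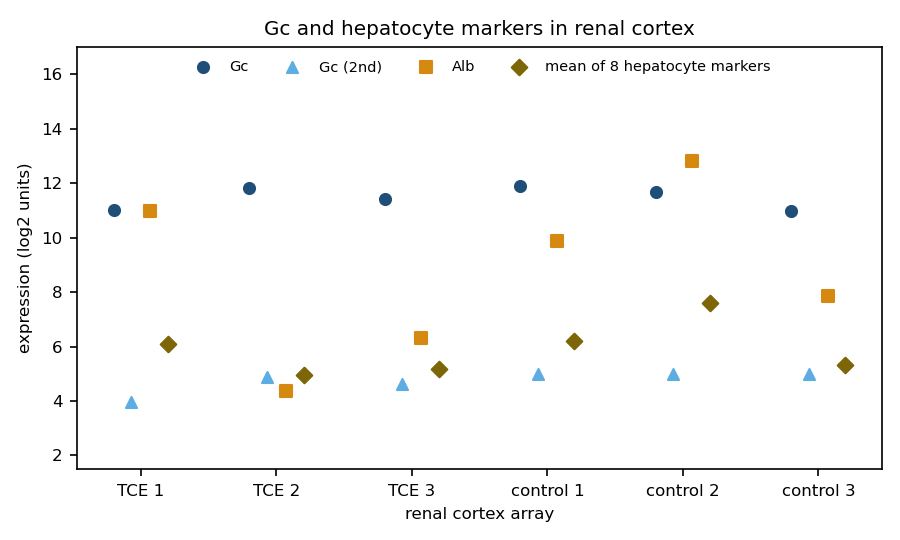
Expression in log2 units (vertical axis) on each of the 6 renal cortex arrays (horizontal axis, TCE rats left of control rats) for both Gc probe sets, for Alb and for the mean of 8 hepatocyte markers. Alb runs from 4.36 to 12.80 and is highest on control replicate 2, while the brighter Gc probe set (circles; triangles are the dimmer) stays between 10.96 and 11.89.

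The promoters of 4 members that separate the tissues are shown with the hexamer AGGTCA, the core motif bound by many nuclear receptors, among them the Vdr and Rxra pair. The 250 bases before the annotated start of Gc, Lrp2, Cubn and Amn were read from RefSeq (build GRCr8), 5′ to 3′ on the strand of the gene. Gc lies on chr14:18916005-18916254 (+ strand), Lrp2 on chr3:74754536-74754785 (- strand), Cubn on chr17:81501695-81501944 (- strand) and Amn on chr6:136132317-136132566 (+ strand). Capitals mark exact matches to this motif.
Gc: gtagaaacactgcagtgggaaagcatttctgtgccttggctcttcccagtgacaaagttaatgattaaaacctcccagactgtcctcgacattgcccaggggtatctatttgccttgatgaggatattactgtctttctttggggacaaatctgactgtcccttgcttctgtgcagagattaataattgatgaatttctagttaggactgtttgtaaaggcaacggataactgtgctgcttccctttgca
Lrp2: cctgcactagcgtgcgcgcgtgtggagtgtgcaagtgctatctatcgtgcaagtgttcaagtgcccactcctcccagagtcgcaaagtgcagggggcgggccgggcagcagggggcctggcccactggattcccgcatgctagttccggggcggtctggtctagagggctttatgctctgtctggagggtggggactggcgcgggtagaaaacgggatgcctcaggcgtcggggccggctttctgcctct
Cubn: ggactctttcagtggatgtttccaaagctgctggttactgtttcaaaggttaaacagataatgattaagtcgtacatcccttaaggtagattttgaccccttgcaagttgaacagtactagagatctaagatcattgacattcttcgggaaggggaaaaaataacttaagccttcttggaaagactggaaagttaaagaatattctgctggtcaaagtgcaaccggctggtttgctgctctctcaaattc
Amn: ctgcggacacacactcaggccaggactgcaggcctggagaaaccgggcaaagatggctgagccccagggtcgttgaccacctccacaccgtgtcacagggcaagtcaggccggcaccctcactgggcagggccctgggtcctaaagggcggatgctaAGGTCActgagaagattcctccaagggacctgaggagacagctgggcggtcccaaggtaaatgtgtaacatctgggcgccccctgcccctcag

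AGGTCA stood in the Amn window at -93 to -88 from the start, on the strand of the gene. Both strands were searched, and the windows of Gc, Lrp2 and Cubn did not hold these letters. Nor did those of Dab2, Kl, Vdr and Cyp27b1, which are not shown. The window of Cyp2r1, also not shown, held them at -128 to -123 on the opposite strand. Of 27457 rat promoters of this length, 13.7% held the motif on either strand. A match describes the letters and shows no binding.

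The tissue tests cover members that passed the filter on low values through renal cortex alone (Cubn, both Amn probe sets and, in control rats, Vdr). They also cover Kl, which was dim in liver, so the count of members passed has no weight. Of the 8 member probe sets tested in TCE rats, 8 passed limma's adjusted p of 0.05 (6 higher and 2 lower in renal cortex), against 61.1% of all 18625 probe sets tested (34.2% higher and 26.9% lower). In control rats 8 of 9 passed, again 6 higher and 2 lower, against 61.8% of all (35.1% higher and 26.8% lower). The split over all probe sets depends on scaling: with arrays centred on their medians 24.4% were higher and 48.6% lower in TCE rats, and 24.3% and 49.0% in control rats, and with quantile normalization 31.1% and 36.6%, and 31.3% and 37.0%. The tissues did not overlap for 8 of 8 in TCE rats and 9 of 9 in control rats, against 70.4% and 71.2% of all probe sets. The tissue differences of the TCE and the control rats share no arrays. Those of Cubn, Amn and Kl are lower bounds set by the floor in liver, so only Lrp2, Dab2 and Gc can be set side by side, with the values given above.

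**Figure D3:**
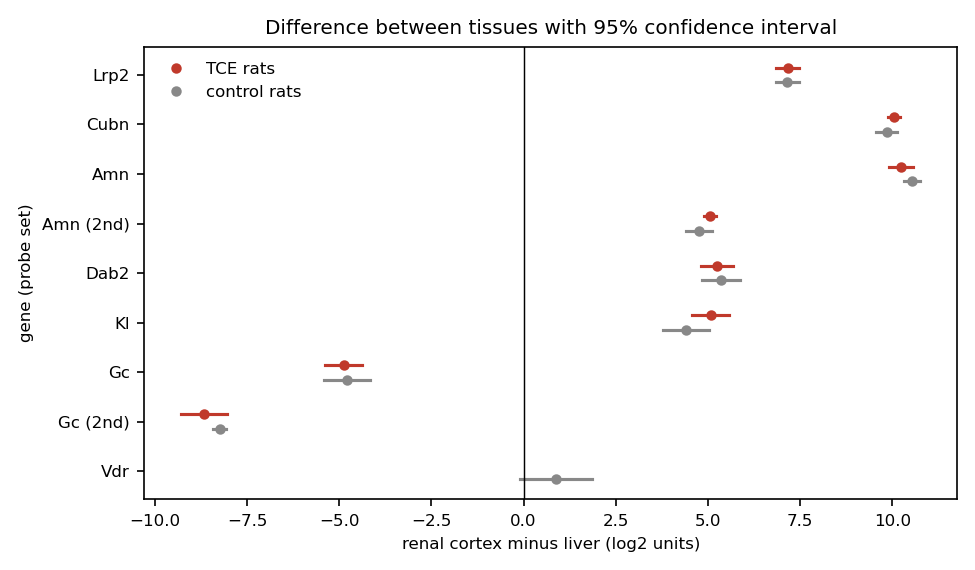
Difference between renal cortex and liver in log2 units (horizontal axis; positive is higher in renal cortex) for each probe set tested (vertical axis), in TCE rats and in control rats. Points are limma estimates and lines their 95% confidence intervals, computed from the measured values; those of Cubn, Amn and Kl, dim in liver, stand for lower bounds. Both Gc probe sets lie left of 0, at -4.88 and -8.66 in TCE rats, and the receptors, Dab2 and Kl lie right of it.

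Of the enzymes and the receptor of the hormone itself, little could be measured. Cyp27b1 stood at the lowest value of the table on all 12 arrays, at 2.17 log2 units in both tissues of TCE and control rats. It was tested in no comparison, and its probe set says nothing of how much of the enzyme these kidneys make. Vdr had 2.38, 2.18 and 3.30 log2 units in renal cortex of TCE rats, against 2.17 on each of their liver arrays. In control rats it had 2.21, 3.76 and 3.16 in renal cortex, against 2.17 on each liver array. Vdr was dim in all 4 groups, so no fold is given. In control rats its tissue difference was 0.88 ± 0.39 (SE), which did not pass the adjusted test, and without renal cortex control replicate 1 it was 1.29. Its liver values stood at the lowest value and it passed the filter on low values through renal cortex alone, so no p is given.

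The effect of TCE was asked in each tissue separately. In renal cortex Kl was higher after TCE on every array, Cubn was slightly higher and the brighter Amn probe set slightly lower, but 0 of the 3 passed the adjusted test. For Kl the 3 TCE values of 7.66 to 8.09 log2 units lay above the 3 control values of 6.68 to 7.48. The difference was 0.72 ± 0.24 (SE), or 1.65-fold, with a 95% confidence interval of 0.12 to 1.32 (limma adjusted p = 0.293, unadjusted p = 0.0271). Without renal cortex control replicate 2 it was 0.91 and without control replicate 1 it was 0.51.

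Markers of the kidney's cell types and the RNA quality sign stood as follows in the same arrays. The loop and distal tubule markers, a list wider than the segment that makes most Klotho, had a median difference of 0.126. Of the 6 tested, 4 were higher, among them Klk1 (0.81 ± 0.16 SE), and 2 lower, among them Slc12a3 (-0.11 ± 0.24). Their summed level was 16.40 to 16.66 log2 units in TCE rats, against 16.28 to 16.50 in control rats, with Pvalb dim in both. Umod, which averaged 15.77 in TCE rats and 15.67 in control rats, makes up much of that sum. All 5 podocyte markers were higher, with a median of 0.649 and a summed level of 11.12 to 11.48 in TCE rats, against 10.68 to 10.88 in control rats. The 3′ minus 5′ difference of the Gapdh quality probe sets, a sign of RNA integrity, was 0.655 ± 0.189 in TCE rats, against 0.971 ± 0.110 in control rats (SD, n = 3 each; two-sided exact permutation test, p = 0.2, where 3 against 3 can reach 0.1). The same difference for Actb was 4.31 ± 0.093 in TCE rats, against 4.48 ± 0.080 in control rats, with groups that did not overlap (SD, n = 3 each; two-sided exact permutation test, p = 0.1). With the Gapdh difference, itself lower on average in TCE rats, as a covariate the Kl difference was 0.38 ± 0.37 (SE). The part of the markers and of RNA quality in the Kl difference was not tested. In pieces of tissue more cells of a type and more RNA per cell cannot be told apart.

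The receptors of the proximal tubule differed by little between TCE and control rats in renal cortex. Cubn was 0.16 ± 0.06 (SE) higher in TCE rats, or 1.12-fold, with a 95% confidence interval of 0.01 to 0.31 (limma adjusted p = 0.327), and its 3 TCE values lay above its 3 control values. Lrp2 was 0.13 ± 0.09 higher (interval -0.08 to 0.35, adjusted p = 0.513), with overlapping groups. Neither interval reached beyond 0.35 units. Dab2, which spread more, had 0.15 ± 0.21 (interval -0.38 to 0.67, adjusted p = 0.762), and 0.35 without renal cortex control replicate 2. For Amn the 2 probe sets pointed apart: the brighter had -0.15 ± 0.07 (interval -0.33 to 0.02, adjusted p = 0.387) with groups that did not overlap, and the dimmer 0.17 ± 0.12 (interval -0.15 to 0.48, adjusted p = 0.572) with groups that did. No direction can therefore be given for Amn. Without renal cortex control replicate 2 the dimmer Amn probe set had 0.30. The 10 proximal tubule markers had a median of -0.002 in the same comparison, with 5 higher and 5 lower, and a summed level of 17.19 to 17.35 in TCE rats, against 17.25 to 17.36 in control rats.

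Gc in renal cortex had -0.10 ± 0.32 (SE) on the brighter probe set, with overlapping groups and an interval of -0.91 to 0.70 (limma adjusted p = 0.908). The dimmer probe set had -0.48 ± 0.24 (interval -1.09 to 0.13, adjusted p = 0.43), with TCE values of 3.97 to 4.90 below control values of 4.97 to 4.99. Without renal cortex TCE replicate 1 that difference was -0.22. The hepatocyte markers had a median of -1.39 in the same arrays, with 6 of 7 tested lower, and -0.433 without control replicate 2. Their part in the Gc value was not tested. Vdr had -0.43 ± 0.49 at dim values (adjusted p = 0.705), and -0.07 without control replicate 2.

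Over the 9 member probe sets tested in renal cortex, 0 passed limma's adjusted p of 0.05, against 0% of all 18625 probe sets. At an unadjusted p under 0.05 there were 2 of 9 (Kl and Cubn), against 14.5% of all. The groups did not overlap for 4 of 9 (Kl and Cubn higher, the brighter Amn and the dimmer Gc probe set lower), against 19.5% of all. The median difference of the 9 was 0.134, against 0.002 over all probe sets. Vdr is counted among the 9 though dim in both renal cortex groups, so it adds no weight to these counts.

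In liver no member tested differed between TCE and control rats past the test. Gc, the member that liver makes in quantity, had -0.002 ± 0.059 (SE) on the brighter probe set, with a 95% confidence interval of -0.15 to 0.15 at values near the top of the scale. The dimmer probe set, which was further from the top, had -0.06 ± 0.09 (interval -0.29 to 0.17, limma adjusted p = 0.787). Dab2 had 0.26 ± 0.17 (interval -0.18 to 0.70, adjusted p = 0.552) and Lrp2 0.13 ± 0.15 (interval -0.25 to 0.51, adjusted p = 0.723), both with overlapping groups. Beside Dab2, all 7 endothelial markers were higher in TCE livers, with a median of 0.17. Of these 7, 0 had an unadjusted limma p under 0.05, against 13.8% of all probe sets. The groups overlapped for all 7, where they did not for 19.2% of all. Macrophage markers had a median of -0.009 with 3 of 7 higher. The Gapdh 3′ minus 5′ difference was 1.49 ± 0.254 in TCE livers, against 0.814 ± 0.040 in control livers (SD, n = 3 each, two-sided exact permutation test, p = 0.1, the smallest that 3 against 3 allows). That of Actb was 5.326 ± 0.306 in TCE livers, against 4.635 ± 0.521 in control livers, with overlapping groups (SD, n = 3 each, two-sided exact permutation test, p = 0.3). With the Gapdh difference as a covariate Dab2 had -0.42 ± 0.32 (SE). The groups did not overlap in that covariate, so its part and that of TCE cannot be told apart. Kl had 0.06 ± 0.21 at dim values, and Cubn, both Amn probe sets, Vdr and Cyp27b1 were too low in liver to be tested.

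Of the 5 member probe sets tested in liver, 0 passed limma's adjusted p of 0.05, against 0% of all 18625, and 0 had an unadjusted p under 0.05, against 13.8% of all. The groups overlapped for all 5, where they did not overlap for 19.2% of all probe sets. Kl is counted among these 5 though dim in both liver groups, so it adds no weight to the counts. Whether TCE acted differently in the tissues was tested directly as the renal cortex effect minus the liver effect. Of the 8 member probe sets in that fit, 4 (Cubn, both Amn probe sets and Kl) were dim in both liver groups, so they have no measured liver effect to subtract and their values are not given. Lrp2 had 0.001 ± 0.184 (SE, limma adjusted p = 1.00). Of the 4 probe sets measured in liver (Lrp2, Dab2 and both of Gc) 0 passed, against 1.06% of all, and 0 had an unadjusted p under 0.05, against 17.7% of all.

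**Figure D4:**
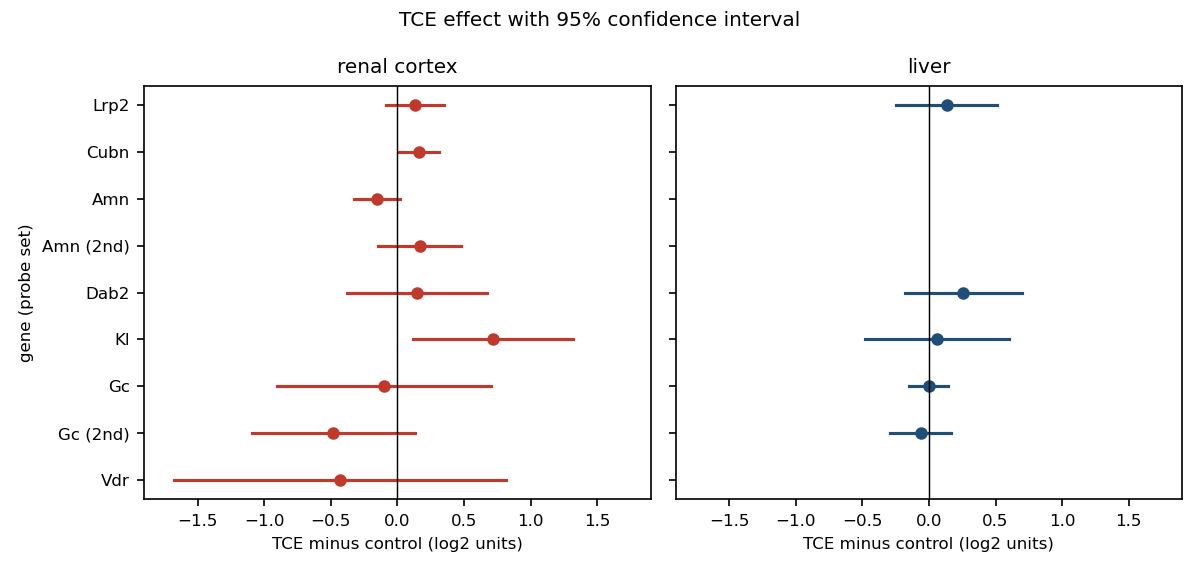
Difference between TCE and control rats in log2 units (horizontal axis; positive is higher in TCE rats) for each probe set tested (vertical axis), in renal cortex (left) and liver (right). Points are limma estimates and lines their 95% confidence intervals, with no point where a probe set was not tested. The intervals of Kl (0.12 to 1.32) and Cubn (0.01 to 0.31) in renal cortex lie right of 0 and all others include it, and none passed the adjusted test.

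Other genes of vitamin D supply, signalling and mineral transport were followed with a list of 25, all on the array. In renal cortex 22 were tested for TCE, of which 16 were lower, 6 higher and 0 past limma's adjusted p of 0.05, with 5 at an unadjusted p under 0.05, against 14.5% of all probe sets, and a median of -0.086. Those with the smallest p were the phosphate transporter Slc34a2 (-0.36 ± 0.08 SE), Dhcr7, the cholesterol enzyme that consumes the precursor of vitamin D (-0.32 ± 0.07), and the disulfide isomerase Pdia3 (-0.23 ± 0.07), with adjusted p of 0.203, 0.217 and 0.284. In liver 21 were tested, of which 15 were higher, 6 lower and 0 past, with 5 at an unadjusted p under 0.05, against 13.8% of all probe sets, and a median of 0.076. Dhcr7 (-0.76 ± 0.19 SE), the Vdr coactivator Ncoa1 (0.27 ± 0.08) and the calcium pump Atp2b1 (0.21 ± 0.06) had the smallest p. Their limma adjusted p were 0.237, 0.266 and 0.276. Over all probe sets the median was 0.002 in renal cortex and 0.020 in liver. Averages below the array medians enter these directions: Cyp3a2 (2.35 in TCE, 2.76 in control rats) and Rxra (2.69, 2.70), lower in renal cortex. In liver they are Casr (2.64, 2.56), higher, and Slc34a1 (3.13, 3.43), lower.

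Between the tissues of control rats, 14 of the 22 tested genes of that list passed higher in renal cortex and 5 lower, against the 35.1% and 26.8% of all probe sets given above and their dependence on scaling. Calb1, counted among the higher, passed the filter on low values through renal cortex alone. The phosphate transporter Slc34a1 averaged 15.23 log2 units in renal cortex and 3.43 in liver, where it lay near the array medians. The calcium-binding protein Calb1 and the calcium-sensing receptor Casr were dim in liver, and renal cortex was at least 895-fold higher for Calb1 and at least 116-fold higher for Casr. Cyp3a2, which degrades vitamin D metabolites among other substrates, was dim in renal cortex and at least 1770-fold higher in liver. Rxra, the partner of Vdr, was also dim in renal cortex and at least 2.73-fold higher in liver. Cyp27a1, a mitochondrial hydroxylase of vitamin D and sterols, was measured in both and had -5.94 ± 0.21 (SE).

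The endocytic machinery around megalin and cubilin was followed with 30 genes, of which 27 were on the array. In renal cortex 26 were tested for TCE, with 15 higher, 11 lower, 0 past limma's adjusted p of 0.05, 4 at an unadjusted p under 0.05, against 14.5% of all probe sets, and a median of 0.017. The adaptor subunit Ap2b1 (-0.33 ± 0.09 SE), the clathrin heavy chain Cltc (0.24 ± 0.07) and the sorting nexin Snx5 (0.34 ± 0.12) had the smallest p. In liver 10 of 25 tested were higher and 15 lower, again with 0 past and 4 at an unadjusted p under 0.05, against 13.8% of all. Lrpap1, the chaperone of megalin (-0.25 ± 0.08), the lysosomal protease Ctsd (-0.31 ± 0.09) and the cystine transporter Ctns (0.40 ± 0.13) led there. Atp6v0a4, among the 15 lower, averaged 2.64 in TCE livers and 2.70 in control livers, below the array medians. Between the tissues of control rats 20 of 26 passed higher in renal cortex and 3 lower, against 35.1% and 26.8% of all probe sets (24.3% and 49.0% with arrays centred on their medians). Slc9a3, counted among the higher, passed the filter on low values through renal cortex alone. Atp6v0a4, a proton pump subunit, and the sodium-proton exchanger Slc9a3 were dim in liver, and renal cortex was at least 460-fold and at least 121-fold higher. The motor Myo6 was measured in both and had 4.14 ± 0.09 (SE). The hepatic relative of megalin, Lrp1, had -5.13 ± 0.16, and the lipid phosphatase Ocrl (-0.73 ± 0.13) and the Fc receptor Fcgrt (-0.67 ± 0.08) were lower in renal cortex by less.

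Plasma proteins that megalin and cubilin take up, with related carriers, formed a list of 15, of which 14 were on the array. For TCE in renal cortex 10 of 12 tested were lower, with a median of -0.445, 0 past limma's adjusted p of 0.05 and 0 at an unadjusted p under 0.05, against 14.5% of all probe sets. The retinol carrier Rbp4 (-0.45 ± 0.24 SE), B2m (0.22 ± 0.14) and the thyroxine carrier Ttr (-1.50 ± 1.03) had the smallest p. Without renal cortex control replicate 2 the median was -0.097 with 7 of 12 lower, beside the hepatocyte median of -0.433 given above, whose part was not tested. Both lists hold Alb and Serpina1, and that array was left out because it stood apart in hepatocyte markers. The medians are therefore not independent of each other or of that choice. In liver 9 of 13 were lower, with a median of -0.028, and 0 passed. Tcn2, transcobalamin, which carries vitamin B12, had -0.18 ± 0.08 (limma adjusted p = 0.413), Clu -0.15 ± 0.11 and Igf1 0.06 ± 0.08. Between the tissues of control rats 11 of 13 passed lower in renal cortex, against 26.8% of all probe sets (49.0% with arrays centred on their medians). Apoa1, counted among the lower, passed the filter on low values through liver alone. Apoa1 was dim in renal cortex and at least 1900-fold higher in liver. Fabp1 spread from 2.49 to 5.80 log2 units and Serpina1 from 2.25 to 6.35 over the renal cortex control arrays, across the array medians, so their differences are not given. Cd320, the cell surface receptor for transcobalamin, passed higher (2.07 ± 0.16), and Tcn2 itself had 0.23 ± 0.18.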

How the data were processed

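Total RNA from renal cortex and liver was hybridised to Affymetrix rat genome arrays, per the labels' protocols. The authors deposited 1 table of log2 values, 31099 probe sets by 12 arrays; the log2 scale is inferred from their range. The packages affy and limma were used, per the submitters' processing notes; for versions, background correction, normalization and probe set summary, the sources used here give nothing.

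Arrays were grouped by the sample titles. Arrays of 1 group correlated at 0.9926 to 0.997 across probe sets, and no 2 arrays were identical. Of the non-control probe sets, 20826 had 1 gene symbol in GEO's platform annotation, 436 several and 9780 none. Deposited values were tested two-sided with lmFit and eBayes (limma 3.58.1, R 4.3.3). Benjamini-Hochberg adjustment covered all non-control probe sets whose mean over the arrays of a fit exceeded the 40th percentile (2.43 to 2.55 log2 units), and the threshold was 0.05. Each fit held only the groups compared, and the difference of effects held all 12 arrays. Other genes were represented by their brightest probe set. SE is limma's moderated standard error. A value within 0.01 of 2.17 counted as lowest. The code was tested on simulated data.

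All probe sets of the members were named; from each list the 3 genes with the smallest p, or the 3 largest tissue differences in each direction; and the 3 genes closest to Lrp2. The members and lists were chosen with earlier results of these data known. Alternatives were other filters, 1 probe set a gene, normalization, variance and block settings, the Gapdh 3′ minus 5′ difference as a covariate and leaving out arrays; the lists without renal cortex control replicate 2 were added after seeing the data.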

Additional observations from a re-analysis of the deposited data

How the results depend on the processing

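The number of member probe sets past the threshold was 0 for TCE in renal cortex, in liver and for the difference of effects under every alternative run, an adjusted p of 0.1 included. For the tissue difference it was 8 in TCE rats (6 with 1 probe set a gene or a 60th percentile filter) and 8 in control rats (6 to 9). The replicate block left these counts at 0, 0, 0, 8 and 8. Equal replicate numbers were not taken as pairs: deviations of same-numbered renal cortex and liver arrays correlated at 0.0147 to 0.0996, and 5 of 6 renal cortex arrays correlated best with their own number, a hint from the data and not the design. Over all probe sets the count for the difference of effects was 198, and 0 with the replicate block; for liver it was 0, and 21 with no filter or 384 with all 12 arrays; for renal cortex 0, 5 and 43.

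Signs turned only for differences that had not passed. With quantile normalization again the brighter Gc probe set in liver had 0 and the dimmer 0.011. With the Gapdh 3′ minus 5′ difference as covariate, liver differences were 0.066 and 0.267 for Gc and -0.421 for Dab2, and those of renal cortex 0.124 for Gc, -0.037 for the dimmer Amn probe set and -0.249 for Dab2; the cause was not tested. Leaving out 1 array gave -0.032 to 0.020 and -0.123 to 0.0051 for the Gc probe sets in liver, -0.090 to 0.238 for Kl in liver and -0.381 to 0.091 for Gc in renal cortex. For the difference of effects it gave -0.379 to 0.093 for Gc, -0.259 to 0.094 for Dab2 and -0.109 to 0.112 for Lrp2. Centring arrays on their medians moved the median tissue difference of all probe sets in control rats from 0.0713 to -0.334, and no member that had passed changed direction. The tissue difference of Vdr in control rats was 0.88 to 1.29 over the arrays left out. It passed 0.05 only without renal cortex control replicate 1, which has no weight because its liver values stood at the lowest value. Values near the lowest limit what could be measured for Cyp27b1, Vdr and, in liver, Cubn, Amn and Kl.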
